A study of Mus musculus with 16 samples.

Results

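The Hox clusters carry miRNA genes between their protein-coding genes, and 4 mature miRNAs from those genes were measured here in mouse dorsal skin: mmu-miR-196a, mmu-miR-196b, mmu-miR-10a and mmu-miR-10b. They are 4 of the 577 miRNAs on the array, matched by name. The set was chosen by position in the Hox clusters and selected on signals already seen in these same 16 arrays, so the group differences of the 4 miRNAs are given below as descriptions, without a test. Each of 16 skin samples was hybridised to its own single-colour Agilent array, with 4 samples in each of 4 groups. All mice were hairless females on the mixed SKH1-C57/Bl6-SV129 background. The study's methods give an age of 8 to 12 weeks without saying at which point. The irradiated skin was taken after 12 weeks of exposure, so this cannot be the age of those mice at sampling. WT(Ppard+/+) mice carry Ppard, which encodes the nuclear receptor PPARβ/δ, and their KO(Ppard-/-) littermates lack it. The groups WT UV and KO UV received UVB at 70 mJ/cm2, 3 times a week for 12 weeks, and lesion-free skin was taken. The groups WT no UV and KO no UV were not irradiated, and the methods describe such controls as sham manipulated and matched for age. Ppard mRNA is not among the features of a miRNA array, so no check of the genotype labels was possible. RNA came from whole skin, in which fewer cells of a type and less RNA per cell cannot be told apart.

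Hox genes encode transcription factors that set position along the body axis, and their order in each cluster follows the order in which they act from head to tail. The miR-196 genes lie among the posterior genes of the clusters and the miR-10 genes among more anterior ones. Both families are known to repress Hox mRNAs, and Hoxb8 is the classic target of miR-196. In skin, dermal fibroblasts keep a pattern of Hox gene activity that differs between body sites.

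A miRNA recognises its targets mainly through its seed, bases 2 to 8 counted from the 5′ end. The mature sequences from RefSeq (GRCm38.p6 table; all 4 members matched) are shown because each pair is almost identical, with the seed in capitals and lines for let-7a and miR-100, which resemble miR-196 and miR-10.
mmu-miR-196a: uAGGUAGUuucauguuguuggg
mmu-miR-196b: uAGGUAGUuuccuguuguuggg
mmu-let-7a: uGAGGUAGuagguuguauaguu
mmu-miR-10a: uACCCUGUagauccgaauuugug
mmu-miR-10b: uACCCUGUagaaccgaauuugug
mmu-miR-100: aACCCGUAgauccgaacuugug

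MiR-196a and miR-196b share 21 of 22 bases and differ by A12C, with positions counted from the 5′ end. MiR-10a and miR-10b share 22 of 23 bases and differ by U12A. Of the 1674 mature mouse sequences in the table, 2 carry the miR-196 seed and 2 carry the miR-10 seed, in each case the 2 members themselves. The seed of miR-196, AGGUAGU, also stands in let-7a, 1 base further from the 5′ end, so that the seeds of let-7 and miR-196 are not the same. MiR-10a and miR-100 share a run of 11 bases.

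The array files place the probes of miR-196a on mm9 at chr11:96126501-96126522, within the Hoxb cluster. RefSeq lists a pair of genes for this one mature sequence, Mir196a-1 between Hoxb13 and Hoxb9 on chromosome 11 and Mir196a-2 between Hoxc10 and Hoxc9 on chromosome 15, and the array cannot tell their products apart. The probes of miR-196b lie at chr6:52180128-52180147, and Mir196b stands between Hoxa9 and Hoxa10. The probes of miR-10a lie at chr11:96178502-96178522, and Mir10a stands between Hoxb5 and Hoxb4, within the annotated span of Hoxb3. The probes of miR-10b lie at chr2:74564133-74564153, and Mir10b falls within the annotated spans of Hoxd3 and Hoxd4. These neighbours were read from the RefSeq table of the other build and used as names alone. MiR-196a had 4 probes of 19 to 22 bases, and each other member had 2 probes of 19 to 21 bases. Every member thus filled 20 spots on each array, and every probe was long enough to span base 12, the only base that separates it from its partner. Cross-hybridisation between partners was not tested.

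Total signal per array, summed over all miRNAs, ranged from 170979 to 395200 intensity units, and reached its highest values in KO no UV, at 254694 to 395200 units. In KO UV it was 200905 to 231139 units, so the totals of the KO groups did not overlap. The keratinocyte miRNAs on the array, 7 of 7, were detected on all 16 arrays. Pairs of arrays from the same group correlated at r = 0.969 to 0.995 across the 167 miRNAs detected on every array. Each slide held 8 arrays of 1 irradiation state, so slide and irradiation cannot be told apart. On the slide with the irradiated samples, row 1 held the 4 WT arrays and row 2 the 4 KO arrays, so that row and genotype cannot be told apart there either. The non-irradiated slide held both genotypes in both rows. The slides also differed in noise. The SD of the negative controls averaged 9.72 units on the irradiated slide and 4.04 on the other, and the local background was 119 to 130.3 against 63.3 to 65.8 units, so detection calls of dim miRNAs are not like for like between irradiated and non-irradiated samples.

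MiR-196a was low in non-irradiated KO skin and higher in every irradiated sample. In KO no UV its total signal was 13.6, 26.7, 0.619 and 7.13 units in replicates 1 to 4. In KO UV it was 98.5, 137, 70.9 and 146 units. The KO groups did not overlap, and miR-196a was detected on 2 of the 4 non-irradiated KO arrays and on all 4 irradiated ones. The share of all miRNAs on the array whose groups did not overlap is not given, here or for the other members below. The array totals of the KO groups did not overlap either, and 29.8% of the 228 miRNAs tested were called in this contrast. Nothing is therefore read from a lack of overlap. In WT no UV the signal was 135, 15.1, 92.3 and 87.7 units. In WT UV it was 248, 110.1, 107 and 151 units. WT no UV replicate 2 therefore stood within the range of the KO no UV samples, while the other 3 WT no UV samples fell within the range of the irradiated ones. MiR-196a was detected on all 8 WT arrays.

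After quantile normalization, values under 19.4 units were set to that floor and log2 was taken, so that 4.28 is the lowest value possible. The mean log2 level of miR-196a was highest in WT UV, at 7.22 ± 0.51 (SD, n = 4). KO UV followed at 7.06 ± 0.38 (n = 4) and WT no UV at 6.30 ± 1.40 (n = 4). All 4 KO no UV arrays and WT no UV replicate 2 were at the floor. The neighbours WT UV, KO UV and WT no UV differed by less than the spread within WT no UV, and KO no UV overlapped WT no UV through that 1 array. The log2 difference between KO UV and KO no UV was 2.79 (standard error of the fit 0.53), which sets a measured level against the floor and moves with it: it was 4.50 with a floor of 1 unit and 0.65 with normexp background correction. Between KO no UV and WT no UV the log2 difference was -2.02 (0.53), and without WT no UV replicate 2 it was -2.70 (0.28). That array was singled out for its own low miR-196 signal, so a larger difference without it is built in. Over the 16 fits that each left out 1 array, the difference lay between -2.70 and -1.65. Irradiation went with a log2 difference of 0.92 (0.53) in WT, and of 0.24 (0.28) without WT no UV replicate 2. The 16 fits gave 0.24 to 1.29. After irradiation KO differed from WT by -0.15 (0.53). The response to UV in WT less the response in KO was -1.87 (0.74).

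**Figure D1:**
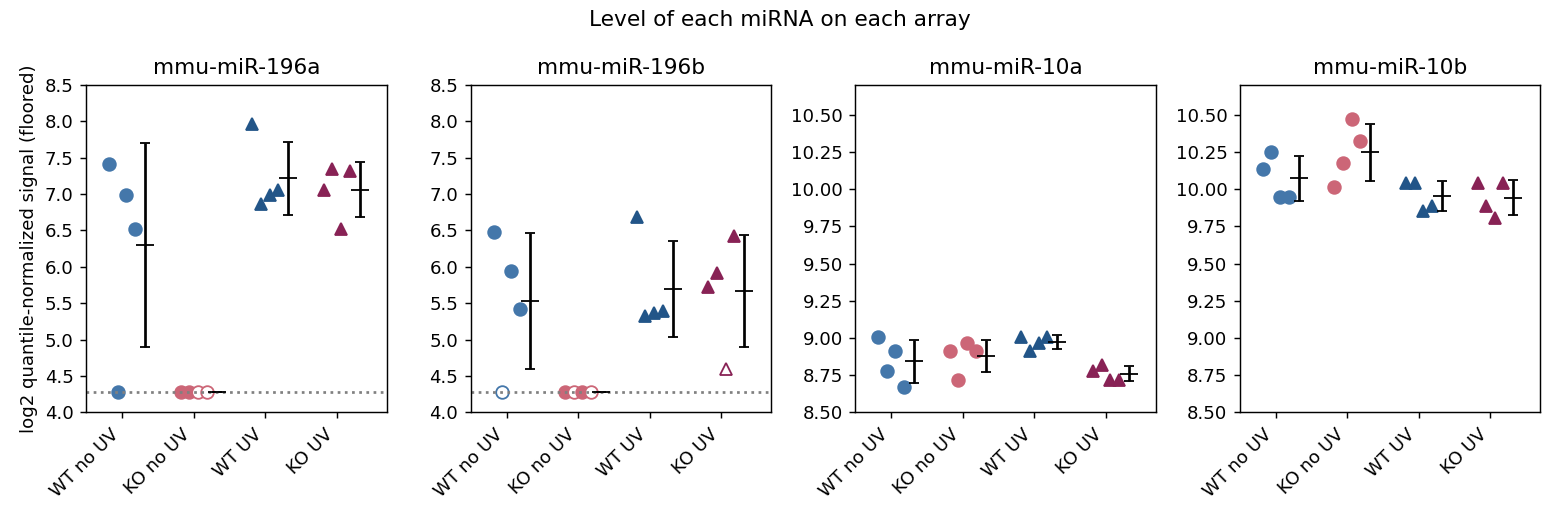
Log2 quantile-normalized signal (y axis) of each miRNA on each of 16 arrays, by group; circles are non-irradiated and triangles irradiated samples, open symbols were not detected, black bars give the mean ± SD (n = 4) and the dotted line is the floor of 4.28. MiR-196a and miR-196b are at the floor on all 4 KO no UV arrays and on WT no UV replicate 2, whereas miR-10a and miR-10b stay between 8.67 and 10.47.

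MiR-196b, from the Hoxa cluster, was low on the same 5 arrays as miR-196a, at a signal nearer to the detection limit. In KO no UV its total signal was 13.9, 8.74, 13.2 and 6.59 units. In KO UV it was 41.5, 54.9, 19.1 and 84.3 units. These groups again did not overlap, from which nothing is read, as the share over all miRNAs is not given. The dimmest KO UV sample, replicate 3, was not called detected at 19.1 units (software error 7.32), on the noisier slide. In KO no UV, 13.2 and 13.9 units were called detected. In WT no UV the signal was 69.9, 6.97, 42.8 and 39.7 units, with replicate 2 again alone at the KO no UV level. In WT UV it was 98.2, 38.0, 41.5 and 48.5 units. MiR-196b was detected on 3 of 4 WT no UV, 2 of 4 KO no UV, 4 of 4 WT UV and 3 of 4 KO UV arrays.

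On the log2 scale miR-196b averaged 5.69 ± 0.66 (SD, n = 4) in WT UV, 5.67 ± 0.77 in KO UV and 5.53 ± 0.94 in WT no UV, and these neighbours in the order lay within one another's spread. As for miR-196a, all KO no UV arrays and WT no UV replicate 2 were at the floor. The log2 difference between KO UV and KO no UV was 1.39 (standard error 0.47), again set against the floor: it was 2.70 with a floor of 1 unit. With normexp, under the limits given for miR-196a, it was 0.13. Between KO no UV and WT no UV the log2 difference was -1.25 (0.47), or -1.67 (0.43) without WT no UV replicate 2, again left out for its own low signal. The 16 fits that each left out 1 array gave -1.67 to -0.94. In WT the irradiated and non-irradiated groups differed by 0.17 (0.47), and by -0.25 (0.43) without WT no UV replicate 2. The 16 fits gave -0.25 to 0.48. After irradiation KO differed from WT by -0.03 (0.47). The response to UV in WT less the response in KO was -1.23 (0.67).

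The individual probes gave the same order of groups before any normalization. On the miR-196a probe of 19 bases the mean signal was 0.819 units in KO no UV, 7.79 in WT no UV, 11.8 in KO UV and 14.4 in WT UV. On the probe of 22 bases it was 5.09, 29.6, 40.0 and 53.6 units in the same order. On the miR-196b probe of 20 bases it was 8.40, 29.1, 35.9 and 40.3 units. All 4 miR-196a probes and both miR-196b probes ranked the groups in this order. The WT no UV means include the low array, replicate 2. On the miR-196b probe of 20 bases it gave 5.71 units, against 50.4, 30.7 and 29.7 in replicates 1, 3 and 4. The place of WT no UV below KO UV therefore leans on that array, and nothing is read from it. Probes of the same miRNA correlated at r = 0.97 or higher over the 16 arrays, and no spot of any member was saturated. These probes share the RNA and, within a miRNA, most of their sequence, so they are no independent samples.

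**Figure D2:**
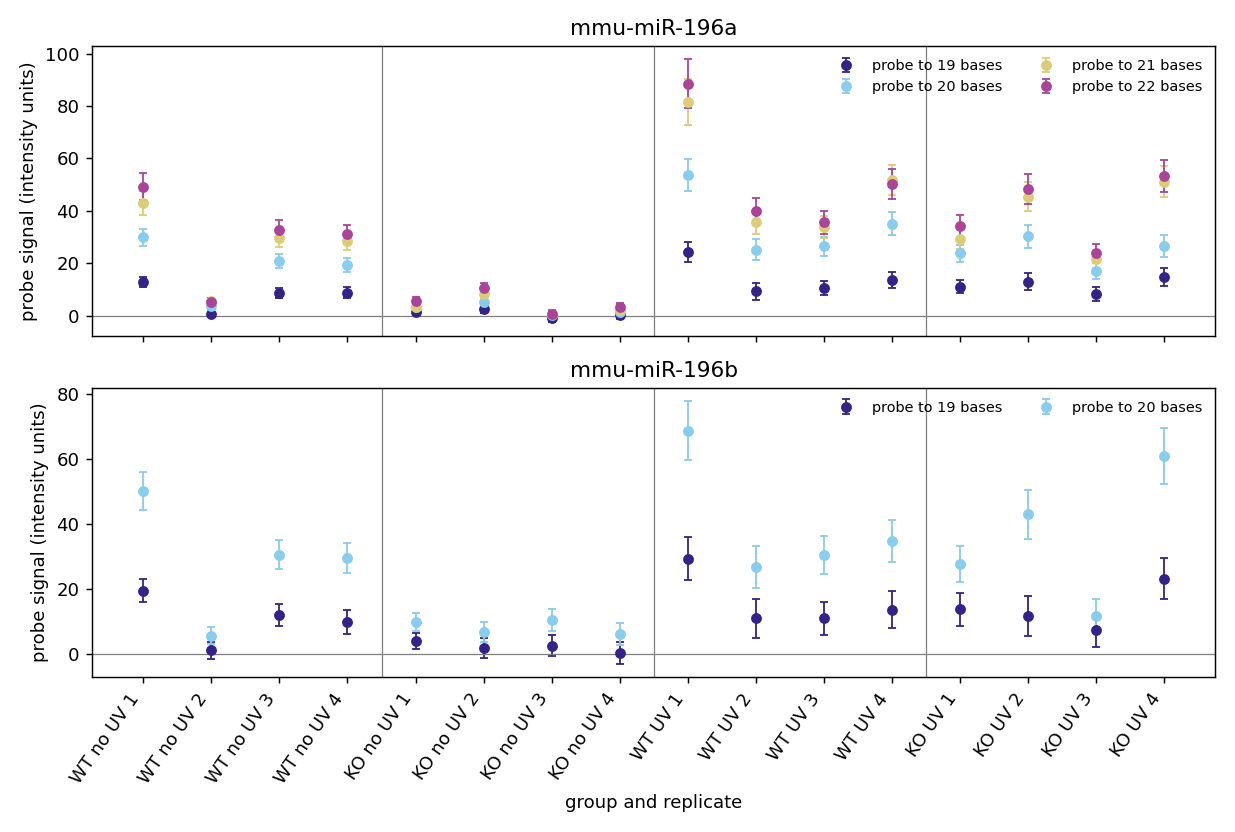
Signal of each probe (y axis, intensity units before normalization; bars are the scanner software's error) on each of 16 arrays (x axis, group and replicate), above for the 4 probes of miR-196a and below for the 2 probes of miR-196b. Every probe is lowest on the KO no UV arrays and WT no UV replicate 2, and the probes of a miRNA move together on the other arrays.

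The parallel between miR-196a and miR-196b also held among the samples above the floor. Over the 11 arrays on which miR-196a exceeded the floor, the log2 levels of miR-196a and miR-196b correlated at r = 0.87 (Spearman's rho 0.82), and with each group's mean subtracted r was 0.89 over all 16 arrays. The points share the array, its normalization and near-identical target sequences. The r over all 16 arrays also takes in WT no UV replicate 2, at the floor for both. The residual SD was 0.77 log2 units for miR-196a and 0.69 for miR-196b, the 2nd and 4th largest of the 228 tested miRNAs, whose median was 0.20. Without WT no UV replicate 2 it was 0.38 and 0.58, and the ranks were 33 and 7 of 228, with a median of 0.19. The KO no UV arrays, all at the floor, add no spread. For miR-10b the residual SD was 0.15 and for miR-10a 0.10.

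**Figure D3:**
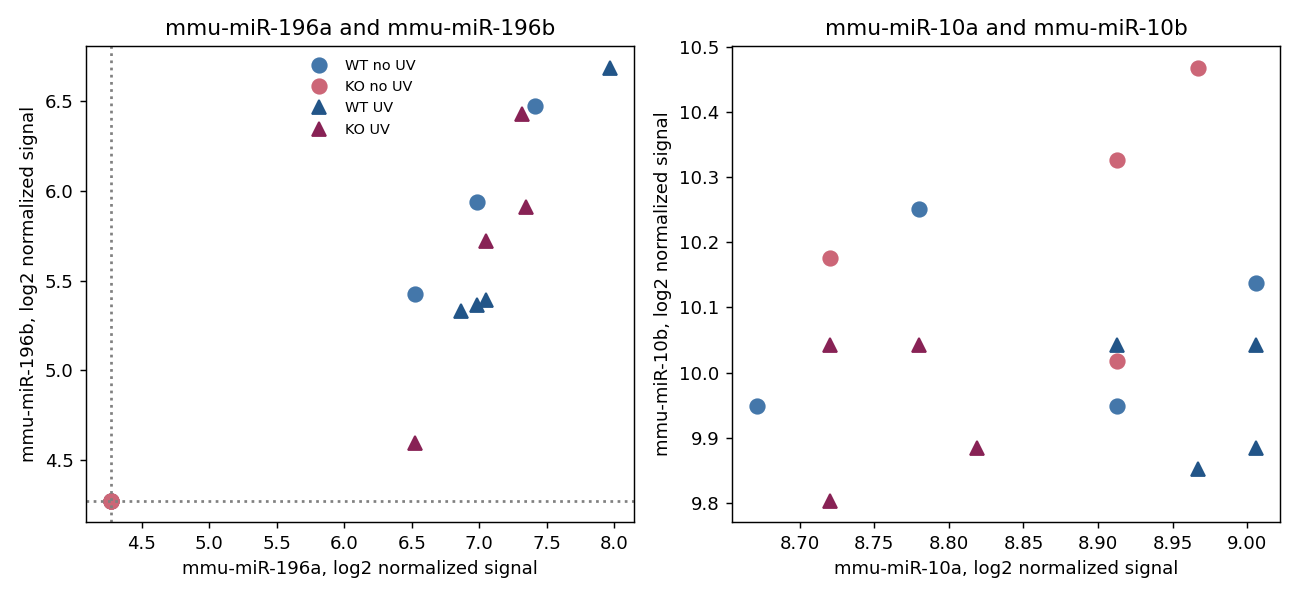
Log2 normalized signal of miR-196b against miR-196a (left; dotted lines mark the floor) and of miR-10b against miR-10a (right), 1 point per array, with circles for non-irradiated and triangles for irradiated samples. The left panel holds 5 arrays at the corner where both are at the floor and 11 arrays that rise together; the right panel has no such line of points.

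The skeletal muscle miRNAs were high where miR-196a was at the floor, with no inverse relation among the other arrays. The list held miR-1, miR-133a, miR-133b and miR-206, all 4 detected on all 16 arrays. Their normalized signals were summed for each array. On the 5 arrays with miR-196a at the floor the sum was 40655 to 50330 units, and on the other 11 it was 19464 to 26806 units, with no overlap. This split was made on miR-196a itself, and 4 of the 5 arrays are the KO no UV group. The share of all miRNAs that separate on it is not given. By group the sums were 20453 to 41168 units in WT no UV, 40655 to 50330 in KO no UV, 21899 to 25985 in WT UV and 19464 to 24489 in KO UV. The highest WT no UV sum, 41168 units, was that of replicate 2. Among the 11 arrays above the floor, miR-196a and the log2 muscle sum correlated at r = 0.19. With group means subtracted, over all 16 arrays, the muscle sum correlated with miR-196a at r = -0.70 and with miR-10b at r = 0.46. For miR-196a the KO no UV arrays, all at the floor, do not deviate from their mean. WT no UV replicate 2 deviates most, at 4.28 against a group mean of 6.30, so this r leans on that array. The part of muscle content in the miR-196 differences was not tested.

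**Figure D4:**
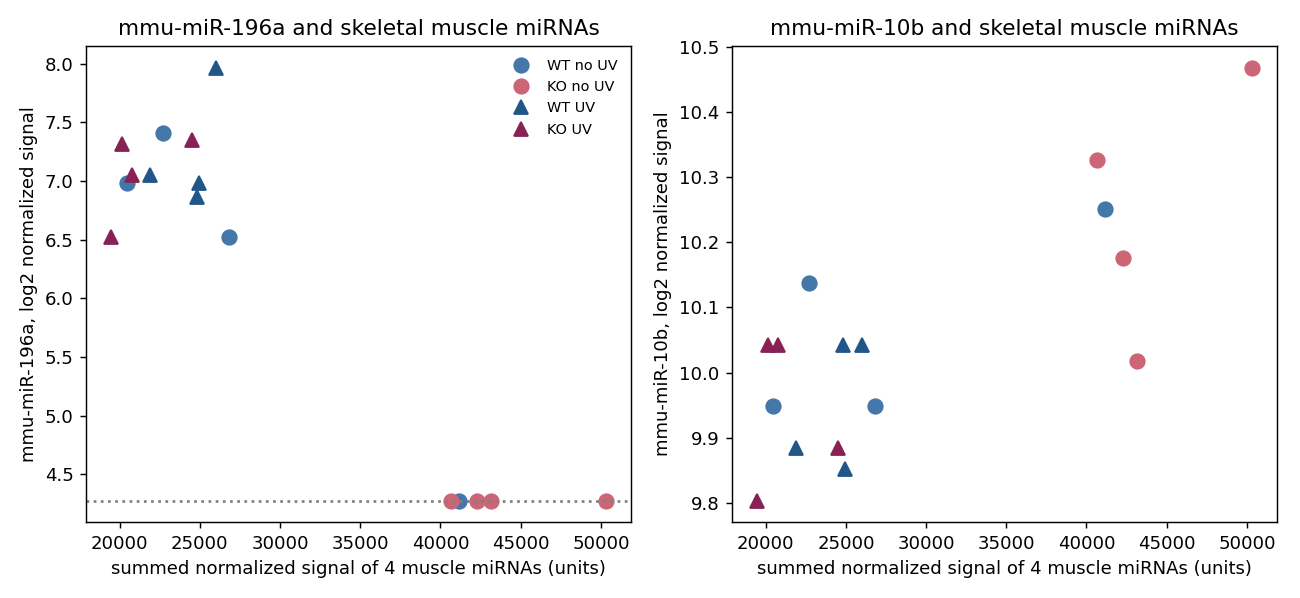
Log2 normalized signal of miR-196a (left; dotted line, the floor) and miR-10b (right) against the summed normalized signal of 4 skeletal muscle miRNAs (x axis, units), 1 point per array. The 5 arrays with sums of 40655 units or more are the 4 KO no UV samples and WT no UV replicate 2; miR-196a is at the floor on all of them and miR-10b lies between 10.02 and 10.47.

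MiR-10a, from the Hoxb cluster, was detected on all 16 arrays and changed little. In WT no UV its total signal was 422, 465, 326 and 368 units. In KO no UV it was 483, 672, 683 and 547 units, above every WT no UV sample before normalization. The normalized groups overlapped, at 408 to 514 units in WT no UV and 422 to 500.4 units in KO no UV. In WT UV the total signal was 489, 499, 438 and 631 units, and in KO UV it was 330.4, 399, 328 and 401 units. These irradiated groups did not overlap before normalization, nor after it, when WT UV held 482 to 514 units and KO UV 422 to 452 units. Nothing is read from this, as the share of all miRNAs that did not overlap is not given.

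The order of the log2 levels of miR-10a was WT UV at 8.97 ± 0.04 (SD, n = 4), KO no UV at 8.88 ± 0.11, WT no UV at 8.84 ± 0.15 and KO UV at 8.76 ± 0.05. KO no UV and WT no UV, neighbours in this order, differed by less than their spread. The log2 difference between KO UV and WT UV was -0.21 (standard error 0.07), a ratio of 0.863 on the linear scale, with genotype and slide row confounded. KO no UV exceeded WT no UV by 0.04 (0.07). Irradiation went with 0.13 (0.07) in WT and -0.12 (0.07) in KO, and the former turned negative under 3 of the other scalings. The response to UV in WT less the response in KO was 0.25 (0.10).

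MiR-10b, from the Hoxd cluster, was also detected on every array and had its highest values in non-irradiated KO skin. In WT no UV its total signal was 944, 1109, 693 and 841 units. In KO no UV it was 1086, 1643, 1783 and 1406 units. In WT UV it was 1126, 1056, 825 and 1204 units. The KO UV samples gave 885, 943, 777 and 968 units. The signals of the KO groups did not overlap, and neither did the total signals of those arrays. After normalization the miR-10b levels overlapped, at 1036 to 1416 units without irradiation and 894 to 1055 with it.

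The log2 levels of miR-10b were 10.25 ± 0.19 (SD, n = 4) in KO no UV, 10.07 ± 0.15 in WT no UV, then 9.96 ± 0.10 in WT UV, and 9.94 ± 0.12 in KO UV, and each neighbour in this order overlapped the next. The log2 difference between KO UV and KO no UV was -0.30 (standard error 0.10), a ratio of 0.810. In WT irradiation went with -0.12 (0.10). KO exceeded WT by 0.18 (0.10) without irradiation and differed by -0.01 (0.10) after it. The first of these was not even across the slide, at -0.10 within row 1 and 0.45 within row 2, with 2 arrays of each genotype in each row. Within the same rows miR-196a differed by -1.57 and -2.48 and miR-196b by -1.10 and -1.41. The response to UV in WT less the response in KO was 0.19 (0.14) for miR-10b. On the 5 arrays with the high muscle sums its log2 level was 10.02 to 10.47, against 9.80 to 10.14 on the other 11, and the part of muscle content in it was not tested.

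**Figure D5:**
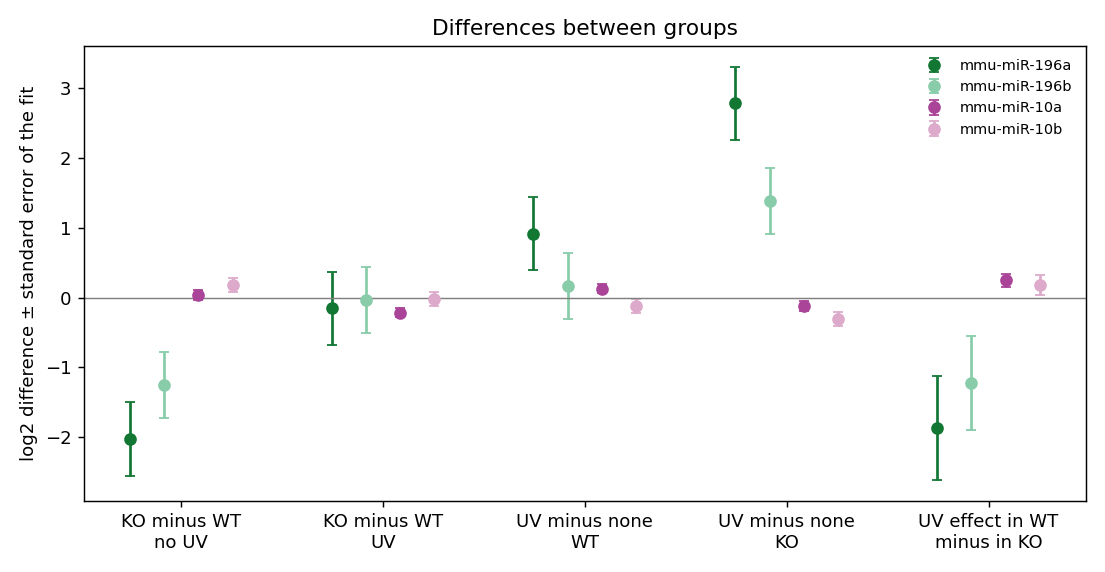
Log2 difference (y axis; points, with bars for the standard error of the fit) of the 4 miRNAs in each of 5 contrasts (x axis), from 4 arrays per group. MiR-196a spans -2.02 to 2.79 and miR-196b -1.25 to 1.39, while miR-10a and miR-10b remain between -0.30 and 0.25.

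A miRNA was tested when some group detected it on each of its 4 arrays. All 4 members passed, miR-196b only through WT UV. Across the 228 miRNAs tested, limma's adjusted p called 0% in KO against WT without irradiation, 2.19% in KO against WT after irradiation, 16.2% for irradiation in WT, 29.8% for irradiation in KO and 2.19% for the difference between the UV effects. In the contrast of irradiation in KO the called miRNAs included 3 of the 4 members, miR-196a, miR-196b and miR-10b. In the main fit none of the 4 was called in the other 4 contrasts. These calls changed with the setting. For irradiation in KO, scaling to the 75th percentile of all miRNAs called miR-196a alone, among 54 of the 228. Normexp called none of the members, among 16, and quantiles within each slide called all 4, among 80. Without irradiation, miR-196a was called between the genotypes with a floor of 1 unit (4 called in all). The authors' log2 table and normexp also called it (9 each). As these arrays chose the members, nothing is read from these counts. Without irradiation, where limma called no miRNA between the genotypes, 36 of the 228 had an unadjusted p under 0.05. That count of 0 changed when single arrays were left out. Without WT no UV replicate 2 it became 17 of the 228, miR-196a and miR-196b among them. Without KO no UV replicate 4 it became 5, with no member among them. For the difference between the UV effects the count of 5 became 13, with miR-196a, and 10, with no member. Nothing is read from these member calls either, as WT no UV replicate 2 stands out on the members' own signal.

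Other products of the Hox clusters could not be followed. MiR-10a*, miR-10b* and miR-196a*, the opposite strands of the members' precursors, and both strands of miR-615, which lies in the Hoxc cluster, were detected on 0 of 16 arrays. Their total signals ranged from -11.7 to 6.35 units, against a mean software error of 4.28 to 4.30 units, so that a change at this level was not detectable.

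The 14 miRNAs that resemble the members in sequence had log2 differences between -0.16 and 0.31 in the 4 contrasts of one group against another. The let-7 list, 8 let-7 miRNAs and miR-98, keeps target repertoires of its own and is known for restraining cell growth. It had 1 of 9 members called in irradiated against non-irradiated KO skin, where 29.8% of all tested miRNAs were called. This was let-7e, with a log2 difference of 0.30 (standard error 0.10, limma adjusted p = 0.0386). None was called in the other 4 contrasts. Its median in KO was 0.11 and its values lay between -0.04 and 0.30. The miR-10-related list holds miR-99a, miR-99b, miR-100, miR-125a-5p and miR-125b-5p, which are found together in clusters with let-7 genes. It had 1 of 5 called in the same contrast, against the same 29.8%. This was miR-99b, with a log2 difference of 0.30 (0.09, adjusted p = 0.0329). None was called in the others. Its median there was 0.14, beside 0.00 over all tested miRNAs. Neither call held under all scalings: when arrays were scaled to the 75th percentile over the 167 miRNAs, 0 of the 14 were called.

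The likeness of other miRNAs to each member was described by Pearson's r of log2 levels over the 16 arrays, among 165 other miRNAs detected on all of them. For miR-196a the most alike were miR-21, an miRNA known to be abundant in irritated and tumour skin, at r = 0.84, miR-140 at 0.83 and miR-155, known from activated leukocytes, at 0.82. With group means subtracted these were 0.51, 0.64 and 0.58. For miR-196b they were let-7c at 0.68, miR-15a at 0.68 and miR-155 at 0.68, and 0.54, 0.50 and 0.35 within groups. For miR-10b they were miR-29c, known for repressing collagen mRNAs, at 0.81, miR-22* at 0.81 and the muscle miRNA miR-133b at 0.79, and 0.72, 0.70 and 0.57 within groups. No miRNA tracked miR-10a closely: the highest were miR-322 at 0.54, miR-199b at 0.53 and let-7i at 0.46, and 0.03, 0.44 and 0.47 within groups. The points share arrays, normalization and the groups, and for miR-196a also the 5 arrays at the floor.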

How the data were processed

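Main results start from the deposited scanner output, linear intensity values that the authors obtained with Agilent Feature Extraction (version 9.5.3.1) with the arrays not yet normalized. Per the file headers, the software subtracted a background, summed the spots of a miRNA into a total signal and made a detection call. A deposited table of log2 values, normalized by the authors with an offset not stated in the sources used here, served as an alternative.

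Total signals were quantile normalized (limma 3.58.1, R 4.3.3), floored at 19.4 units, which is the 5th percentile of detected miRNAs (median of the 16 arrays), and converted to log2. Tested were the 228 miRNAs that at least 1 group detected on each of its 4 arrays. A single group-means fit (lmFit, eBayes) without a replicate block gave 5 contrasts, with Benjamini-Hochberg adjustment and a threshold of 0.05. The fit was checked on simulated data, but the settings and result are not given here, so nothing is read from that check. The methods give 4 animals per group, and p-values measure the spread between these samples. Precision is limited by the number of arrays.

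Members and lists (related miRNAs, other Hox-cluster miRNAs, and keratinocyte, skeletal muscle, leukocyte, erythrocyte, and fibroblast and vessel miRNAs) were chosen with earlier results of these data known. Named were the members in every contrast, list members called in any, the other Hox-cluster miRNAs, and the 3 miRNAs most like each member. Alternatives changed the scaling, background, floor, filter, threshold, slide row, replicate block and arrays used.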

Additional observations from a re-analysis of the deposited data

Results flagged for a closer look

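In 1 of 14 sets of 4 arrays that were not all at the floor, 1 array stood far from the other 3. The log2 level of miR-196b on WT UV replicate 1 was 6.69, with a gap of 0.956 of the group's range to its nearest neighbour. The limit of Dixon's test at the 95% level served only as a criterion for flagging. Chance gives such a gap in about 1 of 20 groups, and 14 were checked, so nothing is read from this 1. MiR-196a was also highest on that array, at 7.97. WT no UV replicate 2, at the floor for both miR-196 miRNAs, did not pass this criterion because its neighbours were themselves spread out.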

How the results depend on the processing

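The 4 members were recomputed under 11 other settings and with each of 16 arrays left out, as log2 differences with no test; a change is given where it exceeded the residual SD of the miRNA. Without normalization, KO minus WT without irradiation became 0.59 for miR-10a and 0.72 for miR-10b, and after irradiation -0.49 and -0.23; UV minus none became 0.38 and 0.24 in WT and -0.70 and -0.71 in KO, and the response to UV in WT less that in KO 1.08 and 0.95. That setting moved the median of all tested miRNAs by 0.52, -0.25, 0.21, -0.48 and 0.78 in the same order of contrasts. With a floor of 1 unit, which lets values under 19.4 units count, miR-196a gave -3.68 in KO minus WT without irradiation, 4.50 for UV in KO and -3.52 for the difference of UV effects, and miR-196b -2.18, 2.70 and -2.16. With normexp and an offset of 50 these 3 values were -0.96, 0.65 and -1.02 for miR-196a and -0.10, 0.13 and -0.15 for miR-196b, and miR-196a in WT turned to -0.37 with UV. There miR-10a gave 0.60 and -0.36 for KO minus WT without and with irradiation, 0.61 and -0.35 for UV in WT and KO, and 0.96 for their difference, and miR-10b 1.01 without irradiation, 0.83 for UV in WT and 1.03 for the difference. Normexp left a median spot signal of 337 to 917 units on 3 arrays (KO UV replicate 1, WT no UV replicates 2 and 3) against 72.3 to 142 on the other 13; the cause was not tested. For UV in WT and KO, miR-10a gave -0.0083 and -0.23 with the 75th percentile of miRNAs detected on all arrays, -0.082 and -0.24 with the invariant set of 83, and -0.061 and -0.30 with quantiles within each slide. The invariant set also gave -0.088 for miR-10a in KO minus WT without irradiation and 0.025 for miR-10b in the difference of UV effects, and the 75th percentile of all miRNAs -0.14 for miR-10b with UV in KO. For UV in WT, the percentile of detected miRNAs, the invariant set and quantiles within each slide moved the median of all tested miRNAs by -0.10, -0.17 and -0.15, quantiles within each slide moved it by -0.12 for UV in KO, and normexp by 0.15 without irradiation and 0.19 for the difference of UV effects. The direction of miR-196a and miR-196b in KO minus WT without irradiation and in UV minus none in KO was the same under every setting that gave a value.

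Of the 14 related miRNAs, the 2 called for UV in KO became 0 with either 75th percentile, the invariant set, normexp, slide row as a covariate, no filter or the methods' threshold, 1 with the authors' table or quantiles within each slide, and 10 without normalization. Leaving out single arrays gave 0 to 3 there (fewer than 2 without KO UV replicates 1, 2 or 3 or KO no UV replicates 1, 2 or 3), and 0 to 1 for UV in WT (1 without KO UV replicate 4 or WT no UV replicate 3). From 0, the count for UV in WT became 1 with no filter, no normalization or quantiles within each slide, that for KO minus WT after irradiation 1 with no filter, and those for KO minus WT without irradiation and for the difference of UV effects both 12 without normalization, where 111 and 138 of all 228 miRNAs were called, and 130 for UV in KO. For KO minus WT without irradiation the authors' table and normexp each called 9 of all 228, and leaving out KO no UV replicate 4 gave 5, in place of 0. A replicate block left every log2 difference as it was, 2.79 for miR-196a with UV in KO, as the groups hold the same numbers. With the block limma called 2 of the 4 members for UV in KO in place of 3, 61 of all miRNAs in place of 68, and 1 in place of 5 for the difference of UV effects. Whether the numbers pair the samples is not known, as the labels do not say what a number stands for. Of 24 same-numbered pairs, 16 deviated together at r above 0.1, and the lowest r was -0.38. Of 16 arrays, 6 correlated best with their own number. Values under the floor have no order on the log2 scale, so the floor chosen here only bounds the log2 level of miR-196 in KO no UV. Before flooring, detected total signals in that group were 13.6 and 26.7 units for miR-196a and 13.9 and 13.2 for miR-196b.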

Other observations

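For each of the 4 cell type lists other than skeletal muscle, the sums on the 5 arrays at the floor for miR-196a overlapped those on the other 11. Summed normalized signals of 7 keratinocyte miRNAs were 21539 to 25477 units in WT no UV and 22225 to 27764 in KO no UV, and 26081 to 31708 in WT UV and 29320 to 43027 in KO UV. The 6 leukocyte miRNAs summed to 4550 to 6008 units in WT no UV, 2777 to 4532 in KO no UV, 3491 to 4310 in WT UV and 3003 to 3506 in KO UV. The 3 erythrocyte miRNAs, 2 of them detected on all arrays, summed to 933 to 1398 units in WT no UV, 1334 to 1809 in KO no UV, 860.4 to 2184 in WT UV and 747 to 2092 in KO UV. The 7 fibroblast and vessel miRNAs on the array summed to 7270 to 9050 units in WT no UV, 7383 to 8657 in KO no UV, 8721 to 9263 in WT UV and 7441 to 8256 in KO UV. For miR-10b the group-centred r with the fibroblast and vessel sum was 0.71 over 16 arrays (0.28 without centring), and for miR-196a it was -0.14. The part of cell type content in any of these levels was not tested.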
